A study of Mus musculus with 2 samples.

Results

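The POU factor genes described here are Pou3f1, Pou3f2, Pou3f3, Pou2f1, Pou2f2, Pou4f1 and Pou6f1, which encode members of the POU family of transcription factors other than the pluripotency factor Pou5f1. They were taken by symbol from the GENCODE M1 annotation of the mouse genome build mm9 and make up 7 of its 37273 genes on the autosomes and sex chromosomes, 22367 of them protein-coding. Every R-loop peak of the deposited list that overlapped one of them, or lay within 20 kb of its limits, was included, which gave 18 of the 22132 peaks.

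POU factors bind DNA through a bipartite domain, a POU-specific domain joined by a linker to a POU homeodomain, and many of them recognise the octamer ATGCAAAT. The class III factors Pou3f1, Pou3f2 (Brn2) and Pou3f3 (Brn1) are expressed in the developing nervous system and act in neural progenitors, cortical neurons and, for Pou3f1, myelinating Schwann cells. Pou2f1 (Oct-1) is a broadly expressed octamer factor, Pou2f2 (Oct-2) is best known from B cells, Pou4f1 (Brn3a) is a regulator of sensory neurons, and Pou6f1 (Brn5) is expressed in brain. R-loops are structures of an RNA:DNA hybrid and a displaced single strand of DNA, and are known to be favoured by G-rich transcripts and CpG island promoters.

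The cells were primary neural stem/progenitor cells (NSPCs) of C57BL/6 mice, cultured from the frontal brain at postnatal day 7. They had been exposed for 48 h to aphidicolin at 0.5 μM, an inhibitor of replicative DNA polymerases that causes mild replication stress, as the study's methods state and the sample labels do not. RNA:DNA hybrids were recovered with the antibody S9.6 from genomic DNA cut with 5 restriction enzymes (DRIP-seq), in 3 biological replicates, and an input sample without antibody was not analysed here. A single list of peak positions, 1 for the whole experiment, holds no signal, count or replicate value, so that no error between replicates can be given, the depth is unknown, no test was possible, and the labelled cell type could not be checked against marker expression.

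R-loop peaks overlapped 3 of the 7 POU genes, Pou3f2, Pou2f1 and Pou6f1, whereas Pou3f1, Pou3f3, Pou2f2 and Pou4f1 had none within their annotated limits. In the same list, 39.6% of protein-coding genes and 27.1% of annotated genes of any type overlapped a peak, so the count for the POU genes was close to that background. A peak within 20 kb was found for 6 of the 7 genes, all but Pou4f1, against 58.0% of protein-coding genes. With protein-coding genes in 10 groups by GC content around the start, the share was 81.4% in the highest group. That group holds 6 of the 7 genes, and the next, with 79.4%, holds Pou2f2. The annotated gene start lay in a peak for 1 of the 7 genes, Pou3f2, against 14.9% of protein-coding genes. With starts taken from RefSeq where a sequence was given, the starts of Pou3f2 and Pou3f3 lay in peaks, 2 of 7. The peaks covered 6364 of the 214463 bases between the limits of the 7 genes, 2.97%. This share was set by Pou2f1, which holds most of the bases, and was 7.27% without it.

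The number of peaks within 20 kb was 5 at each of Pou3f3 and Pou6f1 and 0 at Pou4f1. It was 2 at each of Pou3f1, Pou3f2, Pou2f1 and Pou2f2. The median over protein-coding genes was 1 peak, 61.3% of genes had fewer than 2, and 91.4% had fewer than 5. The windows differed in size, from 41.7 kb at Pou3f2 to 177.5 kb at Pou2f1. Pou3f3 and Pou6f1 together accounted for 10 of the 18. Of the 18 peaks, 5 overlapped their POU gene, 6 lay upstream and 7 downstream. By GENCODE M1 limits 9 lay on no gene, among them the 5 near Pou3f3. The 6.49-kb peak, among these 9, nevertheless held the RefSeq start of Pou3f3. The matching shares over all peaks were not computed, so these counts have no background. No peak was counted for more than 1 POU gene.

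**Figure D1:**
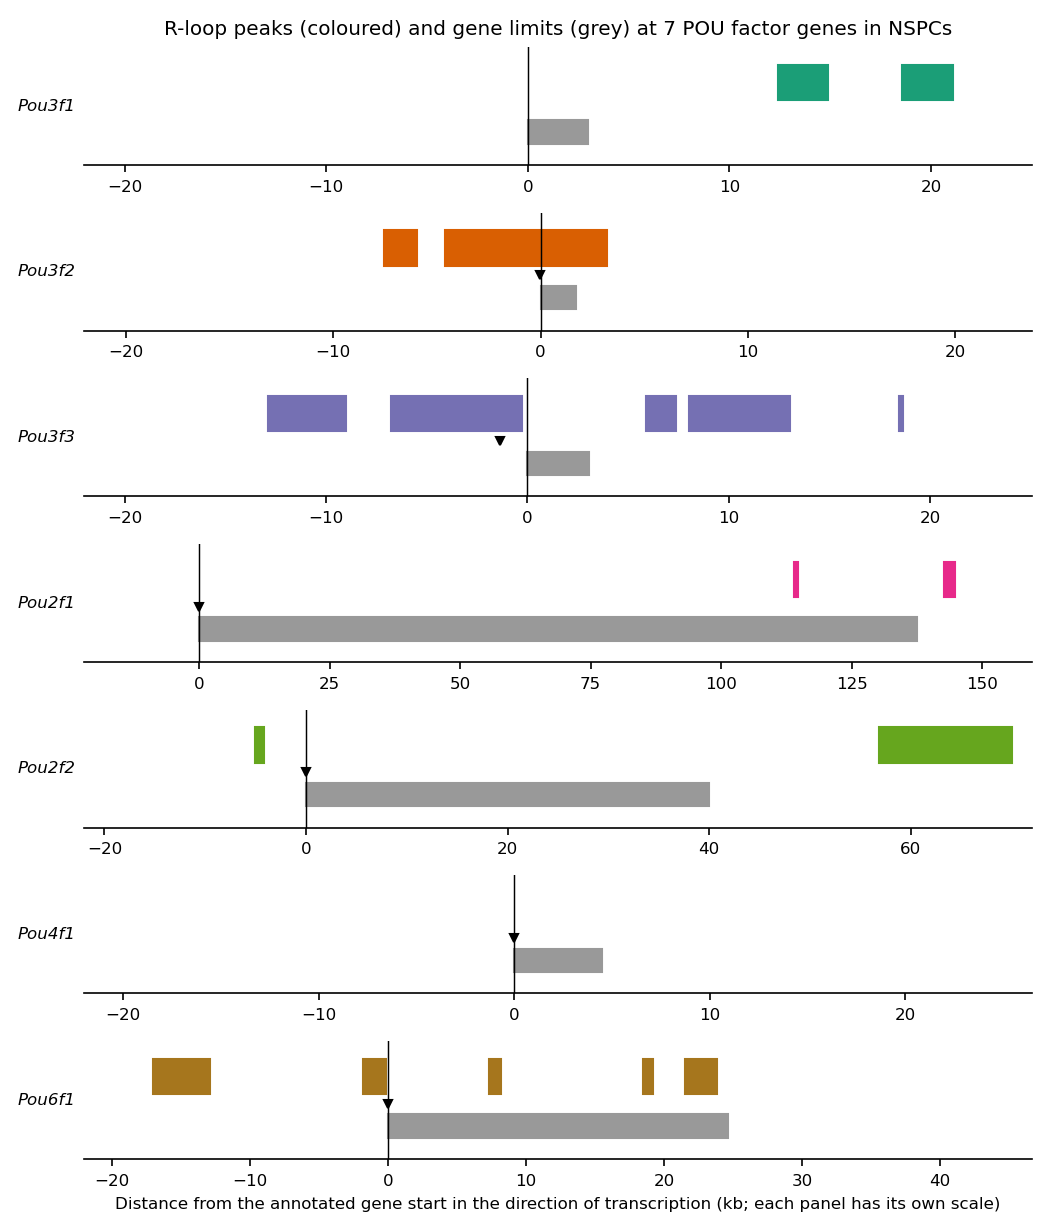
R-loop peaks (coloured bars) and annotated gene limits (grey bars) at the 7 POU factor genes, by distance from the annotated gene start in kb, each panel with its own scale. Black triangles mark the main RefSeq start, which was not given for Pou3f1. The peak over Pou3f2 spans the whole gene, the Pou3f3 gene lies in a gap between peaks with its RefSeq start inside the upstream one, Pou6f1 has peaks along its length, and Pou4f1 has none.

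Pou3f2 (ENSMUSG00000052621) is a gene of 1 exon and 1.69 kb on the minus strand of chromosome 4, chr4:22413791-22415480, and was the only one of the 7 genes covered over its full length. The peak over it reached from −4625 to 3194 bp relative to the annotated start, past the end of the gene, and was wider than 96.3% of all peaks at 7.82 kb. It held all 1335 coding bases. Its G content exceeded its C content on the coding strand, with a GC skew of 0.0737, where GC skew is the difference of G and C over their sum. It contained 81 runs of 4 G on the coding strand and 64 on the other, counted with overlaps. A second peak of 1.56 kb lay 5977 bp upstream, chr4:22421457-22423011, on no annotated gene, and had a negative skew of −0.09. Both edges of the wide peak lay close to a site of one of the 5 enzymes, at 45 and 56 bp.

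The class III promoters are shown to compare a pair of genes whose start lay in a peak with Pou3f1, whose start did not. Each line gives the 250 bases upstream of the start, 5′ to 3′ on the coding strand, on mm9, with runs of at least 4 G in capitals. For Pou3f2 (minus strand) and Pou3f3 (plus strand) the start and sequence are those of RefSeq (GRCm38.p6), placed on mm9 by exact match. For Pou3f1 (plus strand) the annotated start and mm9 sequence were used.
Pou3f2 promoter, chr4:22415514-22415763: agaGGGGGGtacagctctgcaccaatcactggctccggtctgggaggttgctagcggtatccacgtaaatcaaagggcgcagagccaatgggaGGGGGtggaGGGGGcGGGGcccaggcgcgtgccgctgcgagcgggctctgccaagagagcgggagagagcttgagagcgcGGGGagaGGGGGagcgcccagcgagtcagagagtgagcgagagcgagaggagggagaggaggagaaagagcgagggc
Pou3f3 promoter, chr1:42752363-42752612: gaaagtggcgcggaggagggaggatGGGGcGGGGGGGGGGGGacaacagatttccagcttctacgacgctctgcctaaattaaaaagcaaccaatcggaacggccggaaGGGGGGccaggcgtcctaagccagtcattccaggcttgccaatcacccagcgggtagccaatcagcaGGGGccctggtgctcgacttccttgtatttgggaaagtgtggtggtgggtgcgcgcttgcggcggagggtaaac
Pou3f1 promoter, chr4:124334646-124334895: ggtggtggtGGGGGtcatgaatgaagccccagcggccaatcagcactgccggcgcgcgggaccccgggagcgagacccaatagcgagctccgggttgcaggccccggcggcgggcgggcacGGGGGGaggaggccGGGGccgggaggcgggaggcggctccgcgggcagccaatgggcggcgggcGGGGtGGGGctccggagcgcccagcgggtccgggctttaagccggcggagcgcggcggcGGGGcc
All 250 bases of the Pou3f2 and Pou3f3 sequences lay in a peak, and 0 of those of Pou3f1. The Pou3f2 sequence had 116 G against 51 C and a GC content of 66.8%, and the Pou3f3 sequence 94 G against 58 C and 60.8%. The Pou3f1 sequence, without a peak, had the most G of the 3, 124 against 74 C, and a GC content of 79.2%. All 3 promoters had more G than C on the coding strand. The list holds no measure of transcription, and how G content relates to a peak at these genes was not tested.

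The start of Pou3f2 lies within a GC-rich stretch, with 59.3% GC in the 2 kb on either side, higher than at 98.3% of protein-coding genes. Its first 1 kb showed a skew near 0, −0.0015, below the median of 0.039 over protein-coding genes. The restriction fragment that holds its annotated start was 4.84 kb long, longer than for 97.9% of genes, whose median was 1.53 kb.

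Pou3f3 (ENSMUSG00000045515) is a gene of 1 exon and 3.06 kb on the plus strand of chromosome 1, chr1:42753991-42757052. Its annotated limits overlapped no peak, yet 5 peaks lay within 20 kb and covered 39.6% of the window of 43.1 kb, more than for 97.8% of protein-coding genes, whose median was 1.07%. Upstream, a peak of 6.49 kb, chr1:42747242-42753729, ended 262 bp before the annotated start, and another of 3.88 kb, chr1:42741099-42744976, lay 9015 bp away. Downstream, peaks of 1.47 kb, 5.02 kb and 206 bp began 2857, 4962 and 15376 bp after the gene end. All 5 lay on no gene of GENCODE M1. The study, with RefSeq genes on mm9, shows Pou3f3 as a gene with R-loops in NSPCs and not in embryonic stem cells. It also reports that these R-loops reach into the adjacent noncoding gene Pantr1. RefSeq, on a later build, lists Pantr1 with longer limits than GENCODE M1 gives it (as 2610017I09Rik). These limits were not placed on mm9, so an overlap of the Pou3f3 peaks with Pantr1 was not tested here. The gene sat in a gap between peaks of 6.18 kb, chr1:42753730-42759908, which had a GC content of 50.3% and 11 enzyme sites.

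The annotated limits of Pou3f3 begin at its start codon, and the choice of gene start changed what was counted. The RefSeq start, at position 42752613 on mm9, lies 1378 bp further upstream and inside the 6.49-kb peak, as do all 300 bases of its promoter entry. With the limits extended to this start, 1117 of 4440 bases, or 25.2%, were covered, all of them before the first coding base. The 1491 coding bases held no peak bases, in contrast to Pou3f2. By the enzyme sites, however, 1 restriction fragment, 42751907 to 42756541, held the RefSeq start, the peak edge and these coding bases. Per the methods, DNA was sonicated after DRIP, so recovery was of restriction fragments. Where on this fragment the hybrid lay was not tested. The 6.49-kb peak contained 86 runs of 4 G on the coding strand and 60 on the other, although its overall skew was slightly negative, −0.048. The peak of 1.47 kb downstream had a skew of 0.16.

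The 60 bases in which G most outnumbered C are shown for each of the upstream peaks. These stretches were picked for that excess, so a high G content follows from the choice. They are given 5′ to 3′ on the plus strand, with runs of at least 4 G in capitals.
Pou3f3 upstream peak, chr1:42752344-42752403: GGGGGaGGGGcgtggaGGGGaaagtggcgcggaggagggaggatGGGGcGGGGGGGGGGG
Pou3f3 far upstream peak, chr1:42741565-42741624: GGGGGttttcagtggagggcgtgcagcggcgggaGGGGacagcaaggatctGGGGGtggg
The stretch near the RefSeq start had 44 G and 4 C, and it overlaps the promoter sequence of Pou3f3 printed before. The far upstream stretch had 34 G and 8 C.

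Pou3f1 (ENSMUSG00000078236) is a gene of 1 exon and 3.00 kb on the plus strand of chromosome 4, chr4:124334896-124337899, on the same chromosome as Pou3f2. No peak overlapped it, and the nearest, 2.48 kb wide at chr4:124347316-124349795, lay 9417 bp downstream on no annotated gene. A second peak of 2.54 kb began 15550 bp downstream and overlapped the end of Utp11l, a gene for a factor of ribosome biogenesis. No peak lay within 20 kb upstream. Its start had the highest GC content of the 7 genes, 65.6%, above 99.9% of protein-coding genes, followed by Pou3f3 with 65.1%. The first 1 kb had a skew of 0.060, higher than for 58.6% of genes. The annotation also holds a second entry of this symbol on the same locus, a pseudogene entry, for which the same peaks were found.

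The coding sequences of the class III genes and of Pou4f1 hold very GC-rich stretches, and the 60 coding bases in which G most outnumbered C are shown to set the covered gene beside the 3 without a peak. All read 5′ to 3′ on the coding strand of mm9 with runs of at least 4 G in capitals, the Pou3f2 and Pou4f1 stretches from the minus strand.
Pou3f2 coding stretch, chr4:22415014-22415073: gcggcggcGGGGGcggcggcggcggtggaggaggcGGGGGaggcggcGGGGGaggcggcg
Pou3f3 coding stretch, chr1:42754068-42754127: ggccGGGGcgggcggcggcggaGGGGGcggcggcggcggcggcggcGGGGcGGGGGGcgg
Pou3f1 coding stretch, chr4:124335436-124335495: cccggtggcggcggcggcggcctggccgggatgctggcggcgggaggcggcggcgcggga
Pou4f1 coding stretch, chr14:104865445-104865504: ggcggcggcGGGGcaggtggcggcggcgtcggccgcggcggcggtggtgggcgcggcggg
The stretches of Pou3f2 and Pou3f3 were alike in composition, with 43 G and 12 C against 44 G and 15 C. That of Pou3f2 lay wholly in a peak and that of Pou3f3 had 0 bases in one. The Pou3f3 stretch lay on the same restriction fragment as the covered promoter of that gene. The stretches of Pou3f1 and Pou4f1, without a peak, had 35 G and 39 G.

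Bins of 500 bp across 20 kb on either side of the start show how GC content and peaks went together at these genes. At Pou3f2, 6 of the 8 bins with at least 60% GC lay in a peak by at least 50% of their bases. At Pou3f3, 3 of 9 such bins did, 5 had no peak base, and the bin just before the annotated start, with 81.0% GC, was covered for 47.8%. At Pou3f1 and Pou4f1, 0 of 6 and 0 of 7 such bins lay in a peak. The median GC content of bins in a peak was 52.5% at Pou3f2 and 49.2% at Pou3f3, against 40.9% and 41.4% in bins without a peak base. At Pou3f1 the difference was smaller, 54.0% in a peak against 51.2% without.

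**Figure D2:**
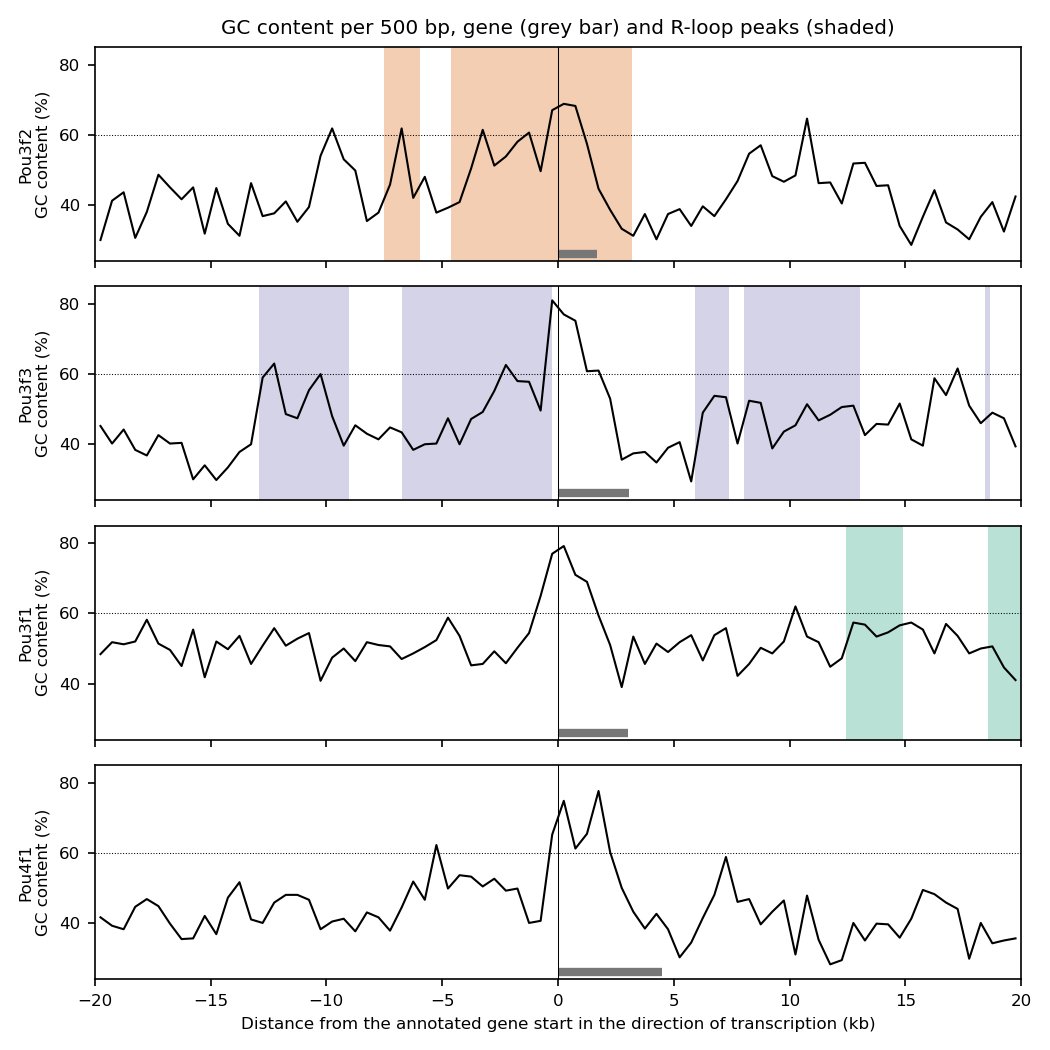
GC content in bins of 500 bp (black line, percent) by distance from the annotated gene start in kb, with R-loop peaks shaded, the gene as a grey bar and a dotted line at 60%. The GC-rich annotated start lies in a peak at Pou3f2, between peaks at Pou3f3, and outside any peak at Pou3f1 and Pou4f1. At Pou3f3 the annotated start is the start codon, and the RefSeq start, 1378 bp upstream, lies inside a peak.

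Genes without introns seldom overlapped a peak in this list. Of 2845 protein-coding genes with only 1-exon transcripts, 5.87% overlapped a peak. These genes were not matched for length or GC content, and whether the lack of introns plays a part was not tested. Among all protein-coding genes, the share was 3.05% at lengths of 54 to 1080 bp. It was 19.99% at 1081 to 3274 bp, the range that holds Pou3f2. By GC content around the start, it was 2.83% in the lowest group and 59.9% in the highest, which holds Pou3f2. Of the 1-exon genes, 70 (2.46%) lay whole inside a peak, as Pou3f2 did. The peaks over these 70 genes had a median width of 4.36 kb, and 17, that of Pou3f2 included, were at least as wide as 7.82 kb. The genes nearest to Pou3f2 by width of the enclosing peak, outside the POU family, were Pcbp1, which encodes a poly(C)-binding protein, with 7.66 kb, Gm10253 with 7.62 kb, Ier5l with 7.60 kb, Dolk, which encodes dolichol kinase, with 8.11 kb, and Gm10250 with 6.91 kb. Their GC content around the start ranged from 44.3% at Gm10250 to 61.4% at Ier5l, with Pou3f2 at 59.3%.

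Pou2f1 (ENSMUSG00000026565) is the longest of the genes, 137.5 kb on the minus strand of chromosome 1, chr1:167795285-167932809. A single peak of 0.77 kb, chr1:167818182-167818951, lay inside it, wholly within an intron and 113858 bp from the start, and covered 0.560% of the gene. This peak was AT-rich, with a GC content of 36.8%, and only 1.08% of all peaks had a lower one. Its G-richest 60 bases are shown as the contrast to the class III stretches, 5′ to 3′ on the minus strand.
Pou2f1 intronic peak, chr1:167818694-167818753: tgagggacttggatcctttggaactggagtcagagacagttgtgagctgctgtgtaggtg
They had 23 G and 8 C and no run of 4 G. The peak searched was 0.77 kb wide, against 6.49 kb for the upstream Pou3f3 peak, so there were fewer stretches to pick from. A second peak of 2.07 kb, chr1:167788110-167790180, lay 5105 bp past the gene end, inside Cd247, which encodes a chain of the T cell receptor complex.

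None of the 10 annotated transcript starts of Pou2f1 and none of its 3 RefSeq starts lay in a peak, and the nearest was 46011 bp from one. The main promoter is G-rich, as the 250 bases upstream of the annotated start show. They are given 5′ to 3′ on the minus strand with runs of at least 4 G in capitals.
Pou2f1 promoter, chr1:167932810-167933059: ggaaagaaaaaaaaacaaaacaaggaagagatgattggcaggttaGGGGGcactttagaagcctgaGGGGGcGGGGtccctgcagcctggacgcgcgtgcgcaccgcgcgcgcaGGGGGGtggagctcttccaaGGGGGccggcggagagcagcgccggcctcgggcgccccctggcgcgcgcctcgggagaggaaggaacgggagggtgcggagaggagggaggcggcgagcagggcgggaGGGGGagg
It had 117 G against 57 C, close to the Pou3f2 promoter, and 0 bases in a peak. The first 1 kb of the gene had a GC content of 70.6%, a skew of 0.12 and 34 runs of 4 G, the most of the 7 genes. The restriction fragment with the start was 1.09 kb, the shortest of the 7.

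Pou2f2 (ENSMUSG00000008496), 40036 bp on the minus strand of chromosome 7 at chr7:25877472-25917507, had no peak within its limits or at any of its 9 annotated transcript starts. Both peaks near it differed from the median peak of the list. Upstream, 4179 bp from the start, a peak of 0.882 kb at chr7:25921686-25922567 consisted almost wholly of a GA-rich repeat on the gene's coding strand, with a skew of 0.61, no CpG and a GC content of 60.5%. The 60 bases with the most G over C are shown to make this repeat visible, 5′ to 3′ on the minus strand.
Pou2f2 upstream peak, chr7:25922165-25922224: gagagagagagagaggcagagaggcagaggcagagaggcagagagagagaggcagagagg
Of the 24-base words of this peak, 89.8% occurred more than once within it, a higher share than in 99.996% of all peaks, which had a median of 0.069%. Among the 18 peaks it was the 1 with more than 10% of such words, against 13.4% of all peaks. The study's methods name uniquely mapped reads as the basis of the coverage tracks, and whether peaks were called from these alone is not given in the sources used here. The part of the repeat in this peak was not tested.

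The other peak near Pou2f2 was the widest of the 18, 13.2 kb at chr7:25847461-25860675, wider than 99.1% of the list. It lay 16797 bp downstream and overlapped Grik5, which encodes a kainate receptor subunit, including the start of that gene. The gap between the 2 peaks, 61010 bp, held all of Pou2f2. Around the Pou2f2 start the GC content was 52.8%, the lowest of the 7 genes.

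Pou4f1 (ENSMUSG00000048349), 4.48 kb on the minus strand of chromosome 14 at chr14:104862737-104867216, was the only POU gene of the 7 without a peak within 20 kb, and the nearest lay 50884 bp away. Its start was as GC-rich as that of Pou3f2, 59.3% in both. Its skew in the first 1 kb was −0.13, the lowest of the 7, with only 6.74% of protein-coding genes lower, and it had 2 runs of 4 G there. Its promoter is shown for comparison with the G-rich ones, 5′ to 3′ on the minus strand from RefSeq (GRCm38.p6), with coordinates on mm9.
Pou4f1 promoter, chr14:104867217-104867466: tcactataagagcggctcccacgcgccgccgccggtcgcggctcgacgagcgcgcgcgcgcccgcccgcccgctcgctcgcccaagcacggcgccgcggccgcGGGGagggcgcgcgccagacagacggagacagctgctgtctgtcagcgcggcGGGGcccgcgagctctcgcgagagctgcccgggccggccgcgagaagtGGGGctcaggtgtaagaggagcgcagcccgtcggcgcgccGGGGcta
The 250 bases held 100 G and 95 C, a near balance, and 47 CpG, against 18 in the Pou3f2 promoter.

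Pou6f1 (ENSMUSG00000009739), 24.7 kb on the minus strand of chromosome 15 at chr15:100405750-100430415, was the gene with the most peaks inside it, 3, which covered 15.8% of its bases. They covered 44.5% of exon bases, 27.9% of coding bases and 6.76% of intron bases, a split set mainly by the peak in the last exon, while 667 and 600 bases of the other two were intronic. The first peak along the transcript, 0.86 kb at chr15:100422226-100423085, held 193 coding bases and began 7330 bp from the start. The next, 0.742 kb at chr15:100411226-100411967, held 142 coding bases. The last, 2.30 kb at chr15:100406554-100408855, lay in the last exon and held 149 coding and 2153 untranslated bases. Part of the coding sequence under the first of these peaks is shown as the contrast to the class III coding stretches, 5′ to 3′ on the minus strand.
Pou6f1 exon peak, chr15:100422340-100422399: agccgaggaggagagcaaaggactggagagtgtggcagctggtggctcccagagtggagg
It had 28 G and 10 C and no run of 4 G.

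The promoter of Pou6f1 lay at the edge of a peak. A peak of 1.70 kb, chr15:100430543-100432240, ended 128 bp upstream of the start, so that 123 of the 250 bases upstream of the start were in it. These are shown 5′ to 3′ on the minus strand from RefSeq (GRCm38.p6), with coordinates on mm9, followed by the G-richest 60 bases of the peak, with runs of at least 4 G in capitals.
Pou6f1 promoter, chr15:100430416-100430665: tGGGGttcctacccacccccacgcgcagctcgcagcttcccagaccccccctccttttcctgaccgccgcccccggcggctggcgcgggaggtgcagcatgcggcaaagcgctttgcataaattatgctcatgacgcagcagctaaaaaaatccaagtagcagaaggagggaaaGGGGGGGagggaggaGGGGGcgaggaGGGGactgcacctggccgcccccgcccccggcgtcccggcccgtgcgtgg
Pou6f1 upstream peak, chr15:100431796-100431855: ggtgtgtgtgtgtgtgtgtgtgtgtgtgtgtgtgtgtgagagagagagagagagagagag
The promoter held equal numbers of both bases, 85 G and 85 C. The stretch from the peak was a run of GT repeats followed by GA repeats, with 31 G and 0 C. The shorter transcript of the gene started 2380 bp from the nearest peak. A further peak of 4.11 kb, 12924 bp upstream, held the starts of Dazap2 and of the noncoding gene C330013E15Rik.

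To set a background for each gene, protein-coding genes were divided into 10 groups of nearly equal size by length, and again by GC content around the start. The share that overlapped a peak rose from 3.05% in the shortest group to 63.7% in the longest, and from 2.83% in the group with the lowest GC content to 59.9% in the highest. The 3 class III genes fell in a length group where 19.99% of genes overlapped a peak, Pou4f1 in one with 30.8%, Pou6f1 in one with 47.3%, Pou2f2 in one with 53.0% and Pou2f1 in one with 63.7%. By GC content, 6 of the 7 genes belonged to the highest group, where 59.9% of genes overlapped a peak and 31.4% of gene starts lay in one. Pou2f2 belonged to the next, with 58.3% and 29.2%. All 7 were above the median GC content of 48.01%. Pou3f2 therefore had a peak where its length placed it among genes that mostly had none, and Pou2f2 had none where its length placed it among genes of which 53.0% did. By GC content, however, Pou3f2 lay among genes of which 59.9% overlapped a peak. Pou3f1, Pou3f3 and Pou4f1 lay in the same GC group and overlapped none.

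**Figure D3:**
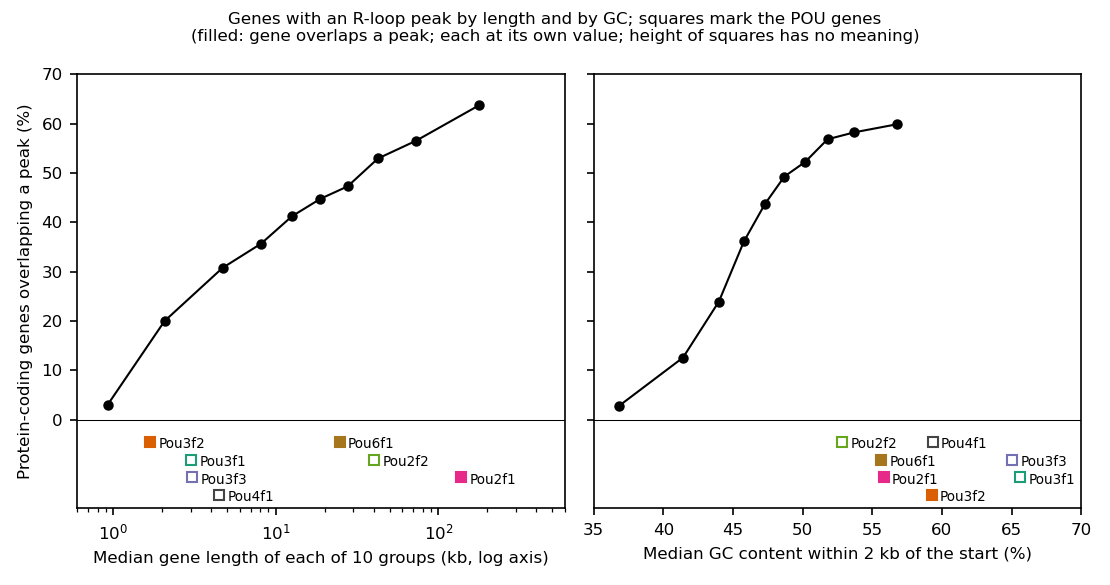
Share of protein-coding genes that overlap an R-loop peak (percent) in 10 groups by gene length (left, log axis) and by GC content around the start, 2 kb on either side (right). Squares mark the 7 POU genes at their own length or GC content, filled where the gene overlaps a peak. The share rises from 3.05% to 63.7% with length and from 2.83% to 59.9% with GC content, and all 7 genes lie in the upper part of the GC range.

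The peaks at the POU genes were on the whole wider and richer in GC than the list. Their median width was 2.19 kb against 1.32 kb, and 13 of 18 were at least 1 kb wide (72.2%) against 58.7% of all peaks. Their median GC content was 52.8% against 48.7%, and 14 of 18 lay above the median of the list. The ratio of observed to expected CpG, a measure that is high in CpG islands, was also above the median of the list, 0.213, for 14 of 18. Skew on the strand of the POU gene was positive for 9 and negative for 9. Only 5 of the 18 peaks overlapped that gene, and for the others its strand need not be the transcribed one. In these 5 the skew was 0.074 at Pou3f2, 0.074 at Pou2f1, and 0.018, 0.029 and −0.044 at Pou6f1. These are descriptions of 18 peaks of 1 list, of which 10 come from 2 genes.

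**Figure D4:**
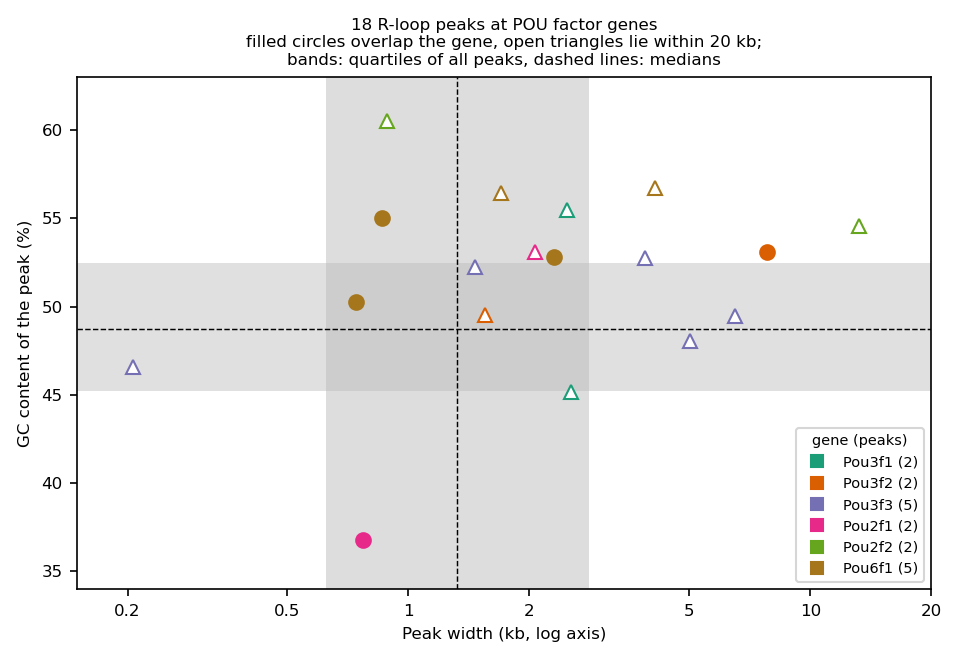
Width (kb, log axis) and GC content (percent) of the 18 R-loop peaks at POU factor genes, coloured by gene, filled circles for peaks that overlap the gene and open triangles for the others. Grey bands span the quartiles of all 22132 peaks on each axis and dashed lines mark their medians of 1.32 kb and 48.7%. At the ends of the range lie the intronic Pou2f1 peak with the lowest GC content, 36.8%, the Pou2f2 repeat peak with the highest, 60.5%, the narrowest peak, 206 bp near Pou3f3, and the widest, 13.2 kb near Pou2f2.

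Peak edges were set against sites of the enzymes EcoRI, HindIII, BsrGI, SspI and XbaI, which cut the DNA before DRIP. Of the 36 edges of these peaks, 10 (27.8%) lay within 100 bp of a site, against 28.3% of the 44264 edges of the list. Both edges did so for the peak over Pou3f2 and for the Pou3f3 peaks of 1.47 and 5.02 kb. The fragments with the gene start were long at Pou3f2, Pou3f3 and Pou4f1, 4.84, 4.63 and 3.54 kb, and these genes included the one with no peak in its window.

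The octamer ATGCAAAT, searched on both strands, occurred once in the 18 peaks, 0.0172 per kb against 0.0347 per kb over all peaks, of which 6.74% held it. It was not found in the 300-base RefSeq promoters of the members, and 1.74% of 32851 such promoters held it. The single match lay in the 6.49-kb peak upstream of Pou3f3, 3963 bp before the annotated start, and is shown with its flanks, the octamer in capitals.
Octamer in the Pou3f3 upstream peak, chr1:42750017-42750046: tatgaaaatgtATGCAAATgaaaatcagca
By contrast, a run of 4 G on the coding strand was found in 69.0% of all RefSeq promoters.

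Related genes can hold identical stretches to which a read cannot be assigned uniquely, so the 36-base words that each gene had in common with another of the POU genes compared were counted. Their share ranged from 0% at Pou3f3 to 1.83% at Pou2f2 and was 0.181% at Pou3f2. Duplicate reads had been removed, per the methods, and read length is not given in the sources used here.

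Of the other 7 POU genes compared, 6 were annotated by symbol, and 0 of these overlapped a peak. Pou1f1, the pituitary factor, had a peak of 0.514 kb 1951 bp downstream, and Pou2f3 had 2 peaks, the nearer 7715 bp downstream and 6.47 kb wide. The nearest peak was 38417 bp from Pou5f1 and farthest, at 408684 bp, from Pou3f4, the class III gene on the X chromosome. With the 7 members, 3 of these 13 annotated POU genes overlapped a peak. Pou3f4 differed from the other class III genes in GC content around the start, with 46.7% against 59.3 to 65.6%.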

How the data were processed

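For NSPCs treated with aphidicolin, the authors deposited 1 peak list, which holds start and end positions in base pairs and no other measurement. Reads had been trimmed with Trim Galore 0.6.6 according to the submitters' processing notes, and per the study's methods aligned to mm9, freed of duplicates and turned into peaks with a Hidden Markov Model. The aligner and the way replicates were combined are not given in the sources used here. Positions were converted to 1-based limits and compared with GENCODE M1 genes and the mm9 sequence, counting an overlap from 1 bp. RefSeq starts (GRCm38.p6) for 6 of the 7 genes were placed on mm9 by exact match of 300-base promoter sequences. GC skew was computed for the first 1 kb of each gene and for each whole peak, on the strand of the gene. The overlap counts were checked on simulated data. Alternatives were another smallest width, merging, other gene limits, overlaps and windows. The 7 genes, the list of other POU genes, in which Pou5f2 was not matched by symbol or synonym, and the measures were chosen with earlier results of these data known. Another gene was dropped from that list and is not reported here. All members, genes under their peaks and the 5 genes most like Pou3f2 by peak width were named. No test across samples could be made from 1 list. Python 3.11.15, numpy 2.4.6, scipy 1.17.1, pysam 0.24.0 and matplotlib 3.10.9 were used.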

Additional observations from a re-analysis of the deposited data

How the results depend on the processing

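Of 29 values computed under other settings, 23 stayed within 1.5 times the reported count or, for the share of bases, within its 95% Wilson interval of 2.90 to 3.04%, which treats bases as independent. The share of bases covered fell to 1.86% with peaks of at least 1 kb, and was 3.48% with gene limits extended to the RefSeq start and 7.27% without Pou2f1. The number of peaks fell to 7 with a window of 2 kb. The number of gene starts with a peak rose to 3 when a peak within 1 kb counted, and to 2 with RefSeq starts. With RefSeq-extended limits 4 genes overlapped a peak. With peaks of at least 1 kb, the peak midpoint inside the gene, or at least 10% of the gene covered, 2 did. Against the reported 3 genes these values are among the 23, as the tolerance is wide for such small counts. A window of 2 kb left 4 genes with a peak, also within the tolerance of the reported 6. Peaks of at least 1 kb left 13 peaks. The alternatives with RefSeq starts and without Pou2f1 were chosen after seeing the data. No paired analysis was possible because 1 list without replicates was analysed. Depth is unknown, so the absence of a peak means only that none was listed.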
